A study of Homo sapiens with 6 samples.

Results

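The genes described here encode chromatin remodellers of the CHD, ISWI and INO80 families with some of their partners, subunits of the NuRD complex, and the related ATPases ATRX and HELLS. They are a named selection from these families and complexes, not all of their subunits, and each symbol matched 1 gene of the annotation, giving 40 of 19820 protein-coding genes. A list of 34 further remodeller subunits and related ATPases, several of them from the same complexes, was counted separately. The measurement was SMARCA4 ChIP-seq in K562, an established human chronic myelogenous leukaemia line with erythroid and megakaryocytic features. All libraries came from cells of this line fixed with 2 mM disuccinimidyl glutarate for 30 min and 1% formaldehyde for 10 min, and their chromatin was sonicated to fragments of 150 to 400 bp. There were 3 libraries made with a SMARCA4 antibody and 3 input libraries without antibody, and the series set out to compare SMARCA4 binding with DNA G-quadruplexes (G4s). The deposited result is a single list of 28265 regions, called peaks here, found in at least 2 of the 3 antibody libraries. It gives a start and an end on hg19 and no height, score or read number, so no value below has a spread between replicates. The paper calls the antibody libraries biological replicates, the series text calls them technical replicates with 1 input, and their description field reads G4 ChIP-seq although the antibody field names SMARCA4. As a check of the cell line, 9 of 10 erythroid and megakaryocytic marker genes had a promoter peak, the exception being the embryonic globin gene HBZ, and so did 0 of 9 genes of lymphoid, liver and neuronal cells.

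Chromatin remodellers spend ATP to slide, space, evict or exchange nucleosomes. SMARCA4 is the motor of SWI/SNF complexes, which mainly move and eject nucleosomes, whereas ISWI enzymes space them, INO80 family enzymes exchange histone variants, and the CHD proteins include both general remodellers and the motors of the deacetylase complex NuRD. A peak in a remodeller gene means that SMARCA4 was crosslinked near that DNA, and does not measure how strongly the gene is transcribed.

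A G4 is a stacked structure that guanine-rich DNA can form, and the motif counted here, on both strands, was any stretch with 4 guanine runs, each 3 or longer, and spacers of 1 to 7 bases between them. A spacer may itself be guanine, so a long run can count as more than 1, as the last run of CHD1 below does. The sequences below were read from hg19 and are written 5′ to 3′ on the guanine-rich strand, with the guanine runs in capitals. They are shown because such motifs lay at starts with a SMARCA4 peak and at starts without one. The following 8 are examples from genes whose motif nearest to the start lay wholly inside a promoter peak. At other genes with a promoter peak, among them MTA3, MBD2, RBBP7 and RUVBL2, the nearest motif was not wholly inside a peak.
HDAC1: GGGGacGGGcGGGGcGGG
SMARCA5: GGGtGGGcGGGGccagacGGG
CHD1: GGGGcGGGGcGGGGGGGG
CHD2: GGGGcaGGGaggtgtGGGGGtGGGGG
SRCAP: GGGctcGGGttctggcGGGagcccctGGG
INO80C: GGGcgctctGGGcgtGGGccttGGG
GATAD2A: GGGcgctGGGactcggcGGGGaGGG
MBD3: GGGcGGGtGGGcggagcGGG
The HDAC1 motif lay on the plus strand at chr1:32757654-32757671, with its centre 21 bp upstream of the start. That of SMARCA5 was on the minus strand at chr4:144434803-144434823, 42 bp upstream, and that of CHD1 on the plus strand at chr5:98264811-98264828, 109 bp upstream. The CHD2 motif (plus strand, chr15:93443383-93443408) was 158 bp upstream, and the SRCAP motif (plus strand, chr16:30710311-30710339) was 167 bp upstream. The INO80C motif (plus strand, chr18:33078050-33078074) was 138 bp upstream, the GATAD2A motif (plus strand, chr19:19516269-19516293) was 203 bp upstream, and the MBD3 motif (minus strand, chr19:1592849-1592868) was 5 bp downstream of the start. The MBD3 motif touched an annotated untranslated exon, and the other 7 lay outside untranslated sequence.

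The next 6 lay within 1 kb of the start of a remodeller gene that had no promoter peak, and are again the motif nearest to each start among those of at most 30 bases.
MTA1: GGGcggcGGGGaGGGGcctcGGG
HELLS: GGGGcGGGaGGGcGGGtGGGG
CHD5: GGGactcGGGctgcGGGGcgcggtGGG
CHD6: GGGGtccgagcGGGGccggcGGGcGGG
SMARCA1: GGGGctaGGGGcggcGGGtgcGGGGG
ATRX: GGGGGaGGGGtGGGcGGG
The MTA1 motif was on the minus strand at chr14:105886128-105886150, 25 bp upstream of the start, and the HELLS motif on the plus strand at chr10:96305488-96305508, 47 bp upstream. The CHD5 motif (minus strand, chr1:6240308-6240334) was 60 bp downstream, and the CHD6 motif (minus strand, chr20:40246797-40246823) was 206 bp downstream. The motifs of SMARCA1 (minus strand, chrX:128657041-128657066) and ATRX (minus strand, chrX:77041040-77041057) were 413 and 653 bp downstream. The motifs of HELLS and CHD5 touched annotated untranslated exons, and the other 4 did not. A matching sequence is a description of the reference and does not show that a G4 forms there.

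A promoter peak was counted when a peak shared at least 1 bp with the DNA from 1 kb before to 1 kb after the start of the gene's representative protein-coding transcript. Of the 40 remodeller genes, 33 had a promoter peak, or 82.5% (95% Wilson interval 68.1 to 91.3%), beside 44.2% of all protein-coding genes (8769 of 19820). Most of the remodeller starts were CpG-rich, meaning at least 55% G and C and a CpG observed over expected ratio of at least 0.6 in the 500 bp either side, a class that took in 31 of the 40 genes and 59.9% of all coding genes. Among coding genes with a CpG-rich start 61.9% had a promoter peak (7345 of 11867), and among the remodeller genes of that class 26 of 31 did (83.9%, interval 67.4 to 92.9%). The 9 remodeller starts outside the class had a promoter peak in 7 cases, beside 17.9% of the 7953 coding genes outside it. These intervals cover counting error only, and genes are not replicates.

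The other lists of chromatin genes had promoter peaks in higher shares. A promoter peak was present at 33 of the 34 further remodeller genes (97.1%), with the INO80 subunit gene ACTR8 as the exception, and at 26 of 27 SWI/SNF subunit genes (96.3%), with DPF3 as the exception. Of 31 Polycomb genes 28 had a promoter peak (90.3%), and PCGF2, PHC1 and L3MBTL2 did not. The share of the 40 remodeller genes was thus above that of all coding genes and below that of these 3 lists. Its interval includes the Polycomb share, and the shares of the further remodeller genes (interval 85.1 to 99.5%) and of the SWI/SNF genes (interval 81.7 to 99.3%) lie above it.

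**Figure D1:**
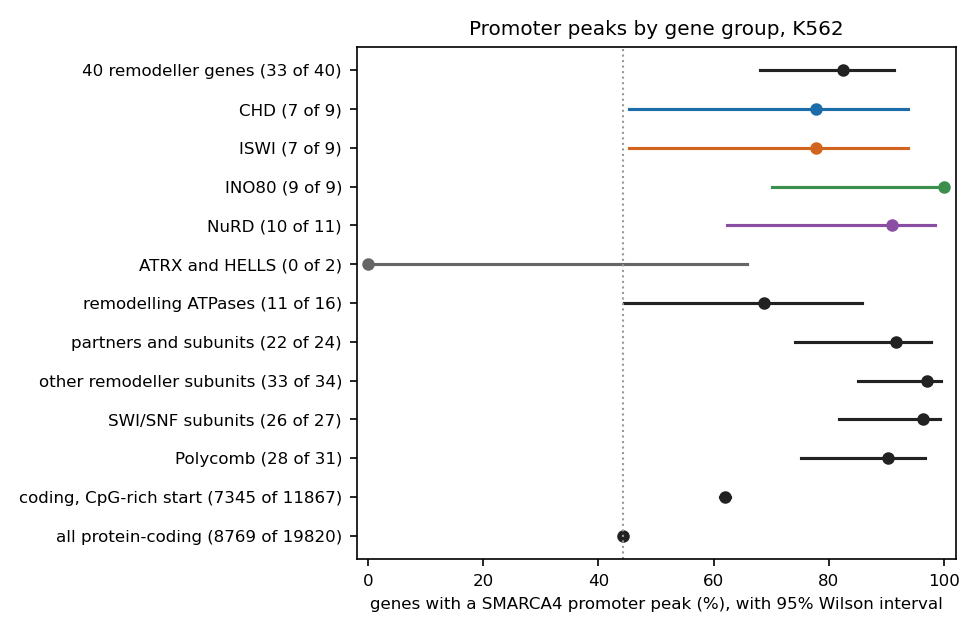
Share of genes with a SMARCA4 promoter peak (x axis, percent) for the 40 remodeller genes, their families and roles, 3 other lists and the coding background; points are shares, bars 95% Wilson intervals, and the dotted line marks the 44.2% of all coding genes. INO80 genes reach 100%, ATRX and HELLS are at 0%, and the remodelling ATPases lie at 68.8%.

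The families differed in their counts, which hold for the selected genes alone. All 9 selected INO80 genes had a promoter peak (interval 70.1 to 100%), as did 10 of 11 NuRD genes (90.9%, interval 62.3 to 98.4%), 7 of 9 CHD genes and 7 of 9 ISWI genes (77.8% each, interval 45.3 to 93.7%), and neither ATRX nor HELLS. Seen by role, 11 of the 16 remodelling ATPases had a promoter peak (68.8%, interval 44.4 to 85.8%), and 22 of the 24 partners and subunits did (91.7%, interval 74.2 to 97.7%). The intervals overlap, and the difference between roles was not tested because the genes were chosen with results of these data known. The share over all coding genes with a CpG-rich start, 61.9%, lies inside the intervals of the ATPases, the CHD genes and the ISWI genes. It lies below those of the INO80 genes, the NuRD genes and the partners and subunits. Of the 7 genes without a promoter peak, 5 are ATPases, namely CHD5, CHD6, SMARCA1, ATRX and HELLS, and the others are the NuRD scaffold gene MTA1 and the ISWI partner gene CECR2.

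Measured from the representative start, the genes without a promoter peak were far from the limit of the definition. Their nearest peak edge was 15.9 kb from the start for CHD6, 16.7 kb for SMARCA1, 19.1 kb for CHD5, 21.3 kb for MTA1, 113 kb for ATRX, 116 kb for CECR2 and 183 kb for HELLS. Among the genes with a promoter peak the most distant edge was that of CHD3, at 807 bp, followed by BAZ2B at 372 bp and RBBP7 at 258 bp. None of the 40 genes had its nearest edge between 807 bp and 15.9 kb. For CECR2 the call depends on the start, since its only peak lay within 1 kb of another annotated start, and with the starts of all annotated transcripts 34 of 40 genes had a promoter peak, 8 of 9 among the ISWI genes.

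The genes without a promoter peak ranged widely in GC content. The start of MTA1, which holds the deacetylases in NuRD, had 78.2% G and C in the 500 bp either side and the highest count of G4 motifs among the 7 genes, 8 within 1 kb. CHD5, a CHD protein known mainly from the nervous system, had 75.9% G and C and 5 motifs, and its relative CHD6 had 73.4% and 5 motifs. SMARCA1, the ISWI motor also called SNF2L, had 64.8% and 5 motifs. HELLS, needed for normal DNA methylation, had 57.8% and 1 motif, and ATRX, which deposits histone H3.3 with DAXX, had 53.0% and 2 motifs. CECR2, a bromodomain partner of ISWI, had the lowest value, 40.1%, with 0 motifs. Of the 12 remodeller starts with at least 70% G and C, 9 had a promoter peak, beside 59.3% of the 3383 coding genes in that class, and of the 16 with 60 to 70%, 15 did, beside 55.8% of 7556. Between 50 and 60% the counts were 7 of 9, beside 40.8% of 5553, and under 50% they were 2 of 3, beside 8.64% of 3310.

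The surroundings of these 7 genes held a median of 8 peaks within 500 kb either side of the start, beside 19, their own promoter peaks included, for the 33 genes with a promoter peak and 16 over all coding genes. In this window HELLS had 2 peaks, and 1 of 5 other coding genes there had a promoter peak. ATRX had 4 peaks and SMARCA1 had 6, and 3 of 7 and 2 of 7 neighbouring coding genes had a promoter peak. MTA1 had 8 peaks, with 4 of 15 neighbours marked, CHD6 had 12 with 3 of 4, CECR2 had 17 with 4 of 9, and CHD5 had 33 with 13 of 18. CHD5 and CHD6 thus lacked a promoter peak among mostly marked neighbours. Low counts were also found around genes with a promoter peak, such as HDAC2 (1), CHD1 (3), MBD2 (4), RBBP7 (6) and INO80D (7). Both SMARCA1 and ATRX are on chromosome X, where 21.9% of 863 coding genes had a promoter peak, beside 45.4% of the 18893 on autosomes. The corresponding shares for CpG-rich starts were 37.5% and 62.8%, and the remaining X-linked gene, RBBP7, had a promoter peak. Gene copy number and transcription in these cells were not measured, and their part in the absences was not tested. These neighbourhood counts were chosen after the unmarked genes were seen.

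**Figure D2:**
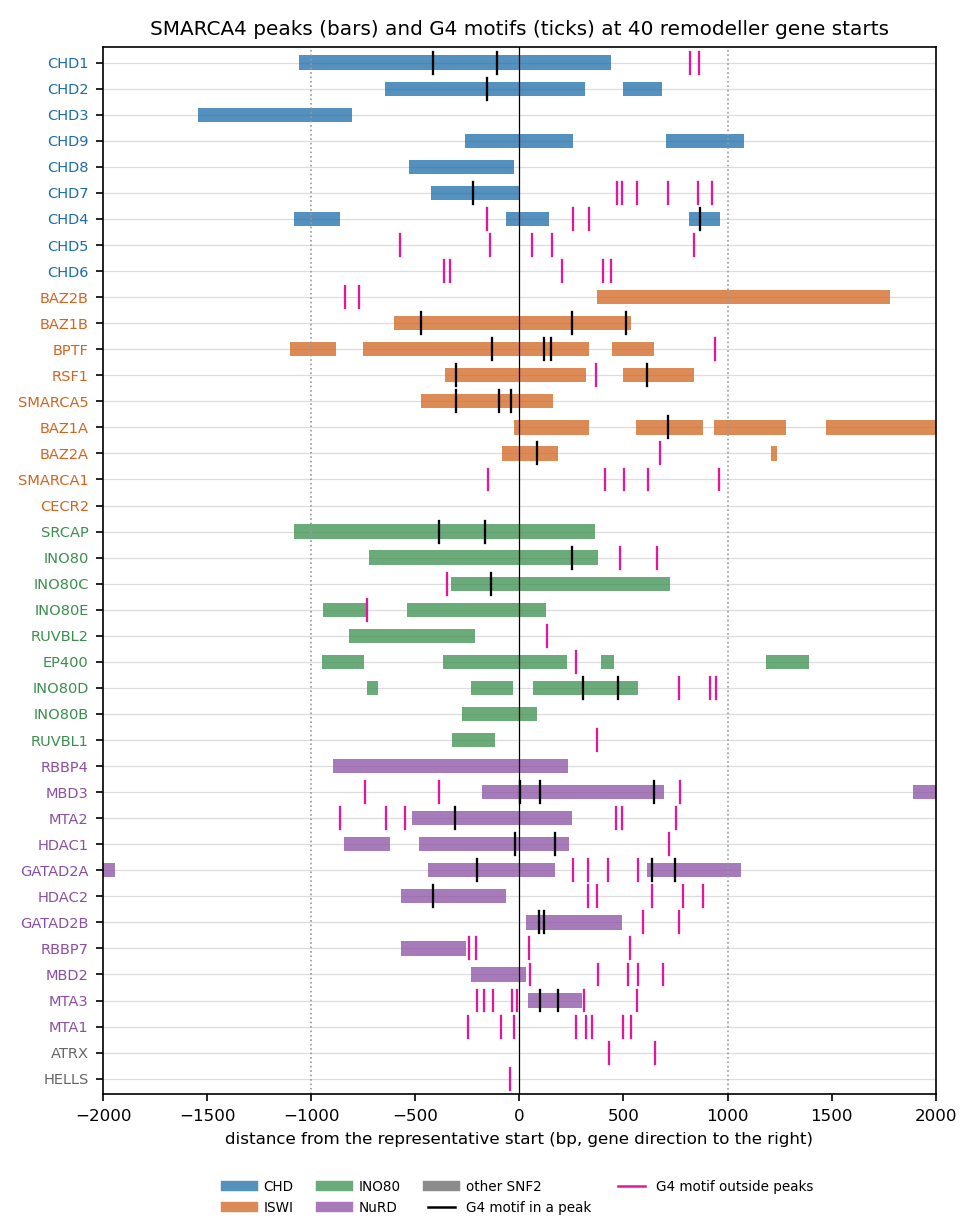
Peaks (bars, coloured by family) and G4 motifs within 1 kb (black ticks inside a peak, magenta outside) around the representative start of each of the 40 genes; the x axis is the distance from the start in bp and dotted lines mark 1 kb. Rows of CHD5, CHD6, SMARCA1, MTA1, ATRX and HELLS carry magenta ticks and no bar, and the CECR2 row is empty.

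The width of the promoter peaks depended on how neighbouring regions were treated. Where a window held several peaks the widest was taken, and its median width over the 33 genes was 608 bp (range 207 to 1501 bp, 95% binomial interval of the median 504 to 769 bp), beside 523 bp over all coding genes with a promoter peak, which lies inside the interval. With peaks at most 500 bp apart merged, the medians were 1054 bp and 619 bp. A width of at least 1000 bp was reached by 8 of the 33 genes (24.2%), beside 14.6% of all coding genes with a promoter peak. The windows of 11 genes (33.3%) held several peaks, beside 26.3% over all coding genes. Family medians were 675 bp for ISWI, 603 bp for INO80, 556 bp for NuRD and 520 bp for CHD, and the range within each family was far wider than the differences among these medians.

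Among the CHD genes the widest promoter peak was that of CHD1, whose chromodomains read a methylated lysine of histone H3. It was a single region of 1501 bp at chr5:98264270-98265770, its centre 309 bp upstream of the start, and it was the only peak in the gene's span. Its relative CHD2 had a peak of 960 bp (chr15:93442909-93443868) across a start that was not CpG-rich, with 43.2% G and C. CHD3, a NuRD motor, had a peak of 739 bp that ended 807 bp before its representative start. CHD4, the other common NuRD motor, had the narrowest value of the family, with 3 separate regions of 219, 207 and 151 bp in the window, the 207-bp region (chr12:6716403-6716609) lying across the start. CHD7, mutated in CHARGE syndrome, had a peak of 424 bp ending 2 bp from its start, CHD8 had a peak of 506 bp ending 24 bp from it, and CHD9 had peaks of 520 and 379 bp. Within the NuRD motors the counts were therefore a peak for CHD3 and CHD4 and none for CHD5. The call for CHD3 depends on the window, as the centre of its peak was 1176 bp upstream of the start. With 500 bp either side, or with the peak midpoint inside the window, CHD3 had no promoter peak.

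Among the ISWI genes the ATPases differed from each other. SMARCA5, the motor also called SNF2H that most ISWI complexes use, had 1 peak of 637 bp across its start (chr4:144434380-144435016), and SMARCA1 had none in its span. The widest peak of the family was that of BAZ2B, a bromodomain protein related to BAZ2A, with 1407 bp at chr2:160471281-160472687, lying in intron 1 with its near edge 372 bp downstream of the start. Its centre was 1075 bp downstream, so BAZ2B had no promoter peak when the midpoint had to lie inside the window. The peak of BAZ1B, the WSTF subunit of the WICH complex, was 1140 bp wide, and that of BPTF, the largest subunit of NURF, was 1085 bp wide with flanking regions of 222 and 202 bp. RSF1 had peaks of 675 and 340 bp. BAZ1A, the ACF1 partner of SMARCA5, had 3 regions of 359, 320 and 344 bp in a row. The narrowest was that of BAZ2A, the TIP5 subunit of NoRC, with 272 bp at chr12:57023924-57024195.

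Among the INO80 genes the remodelling motors INO80, EP400 and SRCAP each had a peak across the start. The peak of SRCAP, which exchanges a histone variant into promoter nucleosomes, was the widest of the family at 1447 bp (chr16:30709408-30710854). That of INO80 was 1102 bp wide, and that of EP400, the motor of the TIP60-p400 complex, was 595 bp wide beside smaller regions of 202 and 62 bp. Of the subunits of the INO80 complex, INO80C had 1054 bp, INO80E 670 bp, INO80D 508 bp and INO80B 361 bp. RUVBL1 and RUVBL2, the AAA+ ATPases shared by the INO80, SRCAP and TIP60-p400 complexes, had peaks of 207 and 603 bp that ended 116 and 216 bp before the start. The RUVBL1 peak (chr3:127842771-127842977) was the narrowest of the family and of all 33 genes.

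Among the NuRD genes the widest promoter peak was that of the histone chaperone gene RBBP4, with 1132 bp at chr1:33115911-33117042, whereas its relative RBBP7 had 310 bp that ended 258 bp before the start. The scaffold genes ranged from 769 bp for MTA2 through 258 bp for MTA3, the narrowest of the family (chr2:42795815-42796072), to no peak for MTA1. The deacetylase genes HDAC1 and HDAC2 had peaks of 722 and 504 bp, and the bridging genes GATAD2A and GATAD2B had 608 and 460 bp. MBD3 had 876 bp, and MBD2, which binds methylated CpG, had 264 bp. Without replicate values none of these differences between related genes could be set against an error.

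**Figure D3:**
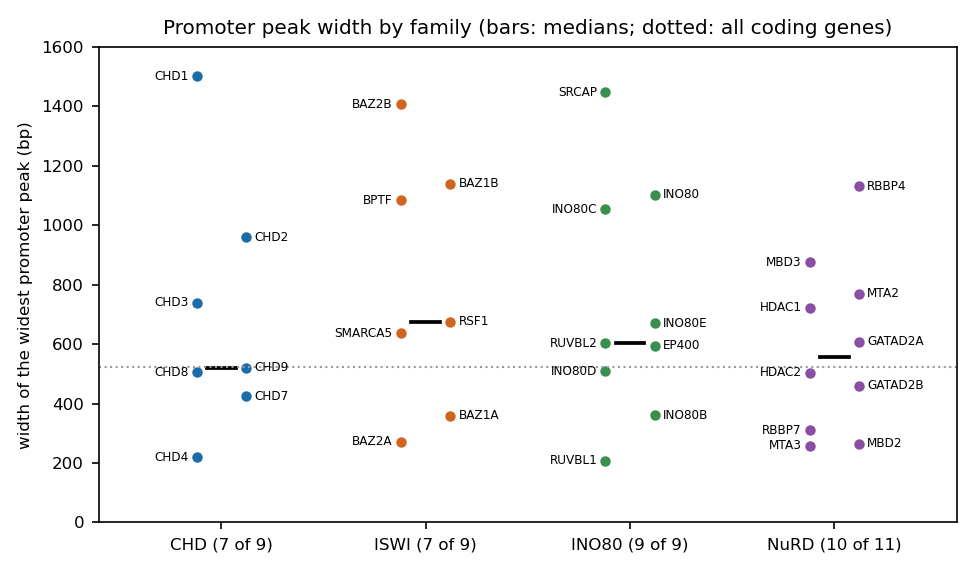
Width of the widest promoter peak in bp (y axis) of each of the 33 genes that had a promoter peak, by family; short black bars are family medians and the dotted line is the median of 523 bp over all coding genes with a promoter peak. Each family spans from under 300 bp to over 1000 bp.

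Promoter peaks reach within 1 kb of the start by definition, so only their position inside that window is described. The start itself was inside a peak at 22 of the 33 genes (66.7%), beside 77.8% of all coding genes with a promoter peak. At another 6 genes the nearest edge was within 100 bp, and at CHD3, BAZ2B, RUVBL1, RUVBL2 and RBBP7 it was farther. The median centre of the widest peak was 135 bp upstream, beside 68 bp upstream over all coding genes with a promoter peak. These are signed medians, in which upstream and downstream positions offset each other, so they are not typical distances. Counted over all 40 genes in steps of 50 bp, coverage reached its highest value of 60% between 225 bp upstream and 75 bp downstream, with 55% at 25 bp downstream. All coding genes reached 34.9% and CpG-rich coding genes 50%, both 75 bp upstream. At 975 bp upstream 12.5% of the remodeller genes were covered, beside 4.27% of all coding genes.

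**Figure D4:**
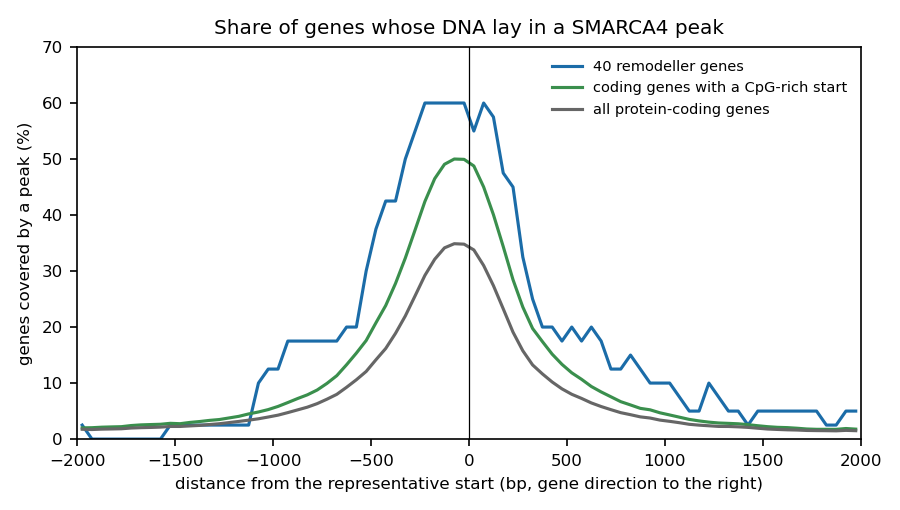
Share of genes covered by a SMARCA4 peak (y axis, percent) at each 50-bp step from 2 kb before to 2 kb after the start (x axis, bp) for the 40 remodeller genes, coding genes with a CpG-rich start and all coding genes. The highest values are 60%, 50% and 34.9%.

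The promoters of 4 remodeller genes were shared head to head with another coding gene whose start lay within 1 kb on the opposite strand. These were RSF1 with AAMDC (422 bp between the starts), RUVBL2 with GYS1 (578 bp), INO80E with HIRIP3 (624 bp) and RBBP4 with ZBTB8OS (658 bp). They make up 10% of the 40 genes, beside 9.31% of all coding genes, and all 4 had a promoter peak. The peaks of these genes cannot be assigned to either gene of the pair. Divergent long noncoding RNA genes started within 1 kb of CHD1 (CHD1-DT, 164 bp), MTA1 (MTA1-DT, 88 bp), SRCAP (113 bp) and GATAD2B (312 bp), and of these MTA1 had no peak. The share of all coding genes with such a noncoding neighbour was not counted, so these cases are a description only.

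A G4 motif lay wholly inside the widest promoter peak of 20 of the 33 genes, or 60.6% (interval 43.7 to 75.3%), beside 48.5% of all coding genes with a promoter peak. The background share lies inside the interval. Among genes with a CpG-rich start and a promoter peak the shares were 57.7% for the remodeller genes (15 of 26) and 52.55% for coding genes. With the motif confined to the central 200 bp of the peak the share was 30.3%, beside 26.3%. By family the counts were 6 of 7 for ISWI, 7 of 10 for NuRD, 4 of 9 for INO80 and 3 of 7 for CHD. The most motifs in the widest peak, 3 each, were found at SMARCA5, BAZ1B, BPTF and MBD3, and 6 genes had 2 each, namely CHD1, SRCAP, INO80D, MTA3, HDAC1 and GATAD2B. With the motifs of both its promoter peaks added, GATAD2A also had 3. CHD4 and BAZ1A had a motif in a narrower promoter peak only, which brings the count of genes with a motif in any promoter peak to 22 of 33. The share over all coding genes was not counted under this wider definition, and the 48.5% applies to the widest peak alone.

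The share rose with peak width in the remodeller genes as in all coding genes. Among the genes with peaks of at least 1000 bp, 7 of 8 remodeller genes and 77.9% of all coding genes had a motif inside the peak. Between 500 and 1000 bp the values were 9 of 15 and 56.7%, between 250 and 500 bp they were 4 of 8 and 37.1%, and under 250 bp they were 0 of 2 and 21.8%. The gene of the widest class without a motif was RBBP4. By GC content of the peak, 9 of 10 remodeller peaks of at least 70% held a motif, beside 67.1% over all coding genes, and 8 of 15 of those with 60 to 70%, beside 48.4%. Between 50 and 60% the counts were 2 of 6, beside 26.0%, and under 50% they were 1 of 2, beside 9.07%. Over all coding genes the share thus rose with both width and GC content, whereas the few remodeller peaks of low GC content did not follow that order. The separate parts of width and GC content were not tested.

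Motifs near the starts were common whether or not a peak was present. Within 1 kb of the start, 28 of the 33 genes with a promoter peak had at least 1 motif (84.8%), and 6 of the 7 genes without one did. Over all coding genes the shares were 77.6% with and 61.4% without a promoter peak, and among CpG-rich starts they were 82.0% and 86.6%. The windows of the 33 genes held 101 motifs, of which 38 were inside a peak (37.6%), and peaks covered 37.2% of the bases of these windows. These shares were close, but a motif counted only when wholly inside a peak, whereas bases were counted singly. They are therefore not fully alike, and whether motifs were inside peaks more often than other bases was not tested. Over all coding genes with a promoter peak 42.1% of the motifs and 32.9% of the bases were inside peaks. The motifs outside peaks lay downstream of the start at HDAC2 and MBD2, and mainly upstream of it at MTA3, as the map of starts shows. EP400, INO80E, RUVBL1, RUVBL2, MBD2 and RBBP7 had a motif in the window but none in a promoter peak, and CHD3, CHD8, CHD9, INO80B and RBBP4 had a promoter peak and no motif in the window.

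Short binding words were counted in the 250 bp before to 50 bp after the start, on both strands. The word GGGCGG of SP and KLF factors, which can overlap a G4 motif, was found at 28 of 40 starts (70%), beside 61.3% of all coding genes and 82.9% of CpG-rich ones. The ETS word CCGGAAGT was found at 3 starts (7.5%), beside 6.05% of all coding and 8.02% of CpG-rich starts, and the YY1 word AAGATGGC at 2 (5%), beside 4.04% and 4.96%. The NFY word AGCCAAT was found at 5 (12.5%), beside 8.79% and 9.82%, the CRE word TGACGTCA at 2 (5%), beside 2.72% and 3.53%, and the NRF1 word CGCATGCG at 0, beside 2.83% and 3.97%. G4 motifs lay in this window at 17 starts (42.5%), beside 33.9% of all coding genes and 44.7% of CpG-rich ones. The following sites are all those of the ETS and YY1 words and 2 examples of the NFY word inside promoter peaks, printed on the strand of the gene with the word, or its reverse complement, in capitals.
MTA2, ETS: aacttcttCCGGAAGTagccgatc
INO80B, ETS: gccatgaaCCGGAAGTaactggtt
INO80E, ETS: cagcgtctCCGGAAGTggaggcgg
BPTF, YY1: gaagaaacAAGATGGCggctgaag
MBD2, YY1: gcggagacAAGATGGCcgcccata
HDAC1, NFY: gcaagctgATTGGCTggagcggt
RBBP4, NFY: gcgctcccATTGGCTgatgttgg
The ETS words lay at chr11:62369378-62369385 in MTA2, chr2:74682138-74682145 in INO80B and chr16:30007548-30007555 in INO80E, all inside the promoter peak. The YY1 words lay at chr17:65821644-65821651 in BPTF and chr18:51751123-51751130 in MBD2, also inside the peak. The NFY words of HDAC1 (chr1:32757606-32757612) and RBBP4 (chr1:33116755-33116761) lay inside a peak. A match is a description of these letters only.

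The spans of the 40 genes, each with 5 kb added at both ends, held 107 peaks, with 0 in 5 genes (CHD5, SMARCA1, MTA1, ATRX and HELLS). The share of all coding genes with no peak in the span was not counted, so whether 5 of 40 is few or many is not known. Of the 107 peaks 49 were promoter peaks, 18 lay within 1 kb of another annotated start of the same gene, 8 at the start of a neighbouring coding gene, 26 elsewhere in the gene and 6 in the flanks. At 11 genes the promoter peak was the only peak, among them CHD1, SMARCA5, BAZ1B, INO80, SRCAP and RBBP4. That share was not counted over all coding genes, so the 11 are not set against a background. The spans held 2.39 peaks per 100 kb, beside 1.89 over all coding genes, and the remodeller genes were long, with a median of 77640 bp beside 27001 bp. A peak outside the promoter was present in 23 of 40 genes (57.5%), beside 40.2% of all coding genes. For genes of at least 100 kb the counts were 12 of 15, beside 51.6% of all coding genes and 72.9% of those with a promoter peak, and between 30 and 100 kb they were 7 of 19, beside 44.9% and 56.8%. Under 30 kb they were 4 of 6, beside 33.8% and 51.3%, so the remodeller share was below both backgrounds in the middle class alone.

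The most peaks were found in EP400 (9), GATAD2A (8), CHD2 and CHD9 (7 each) and HDAC1 (6). In EP400, 3 peaks were at the promoter, 3 in introns 1 and 6, and 3 lay beyond the far end of the gene, from chr12:132568389-132568770 to chr12:132569476-132569738, within 1 kb of annotated starts of noncoding genes. In GATAD2A, 2 peaks were at the representative start, 2 at another start of the gene about 20 kb upstream (20.3 and 19.6 kb), and 4 elsewhere in the gene. CHD2 had a peak of 1035 bp centred 17.9 kb upstream of its start (chr15:93425173-93426207) and another of 293 bp 16.9 kb upstream, both within 1 kb of starts of the long noncoding RNA gene CHASERR, and 3 further peaks in intron 2. CHD9 had 4 peaks at other annotated starts, the widest of 1322 bp at chr16:53163946-53165267, in intron 1 and 75.7 kb downstream of the representative start. In HDAC1, 2 peaks lay in intron 2, and 2 more lay at the start of the neighbouring gene MARCKSL1.

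Several genes had a wider peak at another annotated start than at the representative one. CHD4 had 1224 bp at chr12:6722175-6723398, 6.24 kb upstream, beside 219 bp in its promoter window. BAZ2A had 1389 bp at chr12:57029870-57031258, 6.45 kb upstream, beside 272 bp. CHD9 had the 1322-bp peak beside 520 bp, and CHD2 had 1127 bp in intron 2, 4.10 kb downstream, beside 960 bp. RUVBL1 had 415 bp at another start 29.6 kb upstream, which is also within 1 kb of the start of EEFSEC, beside 207 bp. The promoter widths of these genes therefore depend on which start represents the gene. Of the genes without a promoter peak, CECR2 had its only peak, 269 bp wide, at another annotated start 116 kb upstream (chr22:17840396-17840664), and CHD6 had its only peak, 585 bp wide, in intron 28, 193 kb downstream of the start (chr20:40053924-40054508).

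**Figure D5:**
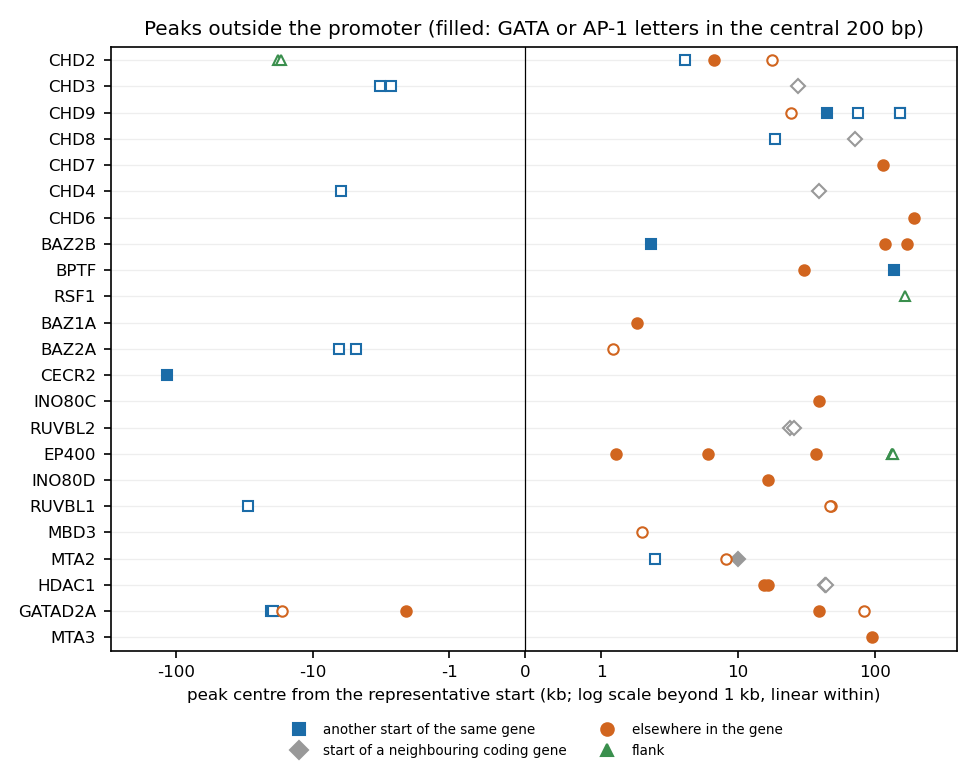
Positions of the 58 peaks outside the promoter in the 23 genes that had any, as distance of the peak centre from the representative start (x axis, kb, log scale beyond 1 kb); marker shapes give the class and filled markers hold GATA or AP-1 letters in the central 200 bp. Filled circles, in the gene and away from its annotated starts, are more frequent than filled squares at other starts of the gene.

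Of the 107 peaks, 49 were away from the representative start of every coding gene, and these were searched in their central 200 bp for the GATA letters TGATAA or TGATAG or AGATAA or AGATAG and the AP-1 letters TGACTCA or TGAGTCA, on both strands. Either was found in 22 of the 49 (44.9%, interval 31.9 to 58.7%), beside 63.5% of the 11870 such peaks in the spans of all coding genes. GATA letters were in 18 (36.7%, background 55.6%) and AP-1 letters in 10 (20.4%, background 16.9%). Another annotated start of a coding gene was within 1 kb of 17 of the 49 (34.7%), beside 19.8% over all coding genes. The difference was not tested, and the 17 peaks came from 11 genes, with 4 in CHD9 and 2 each in CHD3, BAZ2A and GATAD2A. At such starts 4 of 17 held either word, beside 42.8%, and away from every annotated start of a coding gene 18 of 32 did (56.3%, interval 39.3 to 71.8%), beside 68.6%, which lies inside that interval. Some of these 32 peaks, among them those at CHASERR and beyond the end of EP400, lay within 1 kb of a start of a noncoding gene. By family the counts were 7 of 11 for ISWI, 6 of 10 for INO80, 5 of 12 for NuRD and 4 of 16 for CHD. A G4 motif was present in 11 of the 49 peaks (22.4%), beside 12.6% over all coding genes.

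Both words stood together in the central 200 bp of 6 of these 49 peaks, in CHD6, BAZ2B, BPTF, EP400, HDAC1 and GATAD2A. Of the 11870 such peaks over all coding genes, 6597 held GATA letters, 2004 held AP-1 letters and 7534 held either. Peaks with both words are part of each of these counts, and their own share was not listed separately. The 6 of 49 is therefore not read as a trait of these genes, and the 6 peaks are described as examples only. The centres of 3 of the 6 are shown, on the plus strand of hg19 with the GATA and AP-1 letters of either strand in capitals. The 3 are intronic examples from a CHD, an ISWI and a NuRD gene, chosen after the matches were seen.
CHD6: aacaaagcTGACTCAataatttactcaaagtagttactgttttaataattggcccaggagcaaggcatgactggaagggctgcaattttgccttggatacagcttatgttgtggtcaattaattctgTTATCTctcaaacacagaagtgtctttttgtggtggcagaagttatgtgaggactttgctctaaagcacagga
BAZ2B: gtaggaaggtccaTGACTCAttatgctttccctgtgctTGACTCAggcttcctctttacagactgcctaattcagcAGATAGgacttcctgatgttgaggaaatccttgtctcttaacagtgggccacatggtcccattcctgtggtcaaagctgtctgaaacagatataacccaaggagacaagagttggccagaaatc
HDAC1: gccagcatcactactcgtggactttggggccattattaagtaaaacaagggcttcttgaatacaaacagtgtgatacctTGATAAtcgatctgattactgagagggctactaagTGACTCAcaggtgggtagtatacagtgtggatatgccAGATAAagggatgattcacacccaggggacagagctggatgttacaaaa
These lie at chr20:40054116-40054315 in intron 28 of CHD6, chr2:160353856-160354055 in intron 2 of BAZ2B and chr1:32772996-32773195 in intron 2 of HDAC1. The peaks were 585, 456 and 415 bp wide. GATA factors and AP-1 can bind such letters, and their occupancy was not measured here.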

How the data were processed

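The authors trimmed the reads, aligned them to hg19 (the build named in the submitters' processing notes), removed duplicates, called peaks per replicate with MACS2 against input, and kept regions found in at least 2 of 3 replicates. The deposited values are positions in bp, a start and an end per region. Read depth is not in the list, and the precision of each share is set by the number of genes or peaks counted.

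Genes, transcripts and starts came from GENCODE 44 lifted to hg19. The representative transcript was the protein-coding one tagged Ensembl canonical. Where that tag was missing it was the best by APPRIS tag, and otherwise the one with the longest coding sequence. Overlaps and motifs were computed with Python 3.11.15, intervals with scipy 1.17.1 and figures with matplotlib 3.10.9, and the code was tested on simulated data. No test was run, since the 40 genes and the other lists were chosen with earlier results of these data known. Named in full were genes without a promoter peak, the widest and narrowest promoter peak of each family, the 5 genes with most peaks, those with most G4 motifs and head-to-head promoters. Since the 3 replicates are pooled in the list, no paired analysis could be made.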

Additional observations from a re-analysis of the deposited data

How the results depend on the processing

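The share with a promoter peak was recomputed with 1 kb upstream only, 500 bp or 2 kb either side, the starts of all annotated transcripts, peaks of at least 200 bp, and the peak midpoint inside the window. It ran from 75% (1 kb upstream only, background 42%) to 85% (all annotated starts, background 48.2%), within the interval of the 82.5% reported. The family shares also kept within their intervals under these settings. The number of peaks in the spans, 107 as reported, ran from 83 without the flanks to 117 with 10 kb flanks. The share with GATA or AP-1 letters was 51% over whole peaks (background 71.5%) and 50% for peaks of at least 200 bp (background 65.7%).

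A share or median moved beyond its interval under 3 alternatives. Merging peaks at most 500 bp apart gave a median promoter peak width of 1054 bp, beside 619 bp over all coding genes. Without merging the medians were 608 and 523 bp. Merging can only keep or widen a region, and the larger rise in the remodeller genes was not tested. The share of promoter peaks with a G4 motif was 75.8% with loops of 1 to 12 bases (background 65.5%) and 30.3% with the motif confined to the central 200 bp (background 26.3%).

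Leaving out replicates could not be run, because the list holds no value per replicate. The depth behind each region is unknown, so a missing peak is not a measured absence of SMARCA4.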

Other observations

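The widest promoter peaks in the other lists were 1771 bp at CHRAC1, a small ISWI subunit gene, and 1612 bp at EPC1 among the further remodeller genes, 1783 bp at BICRAL and 1579 bp at ARID1A among the SWI/SNF genes, and 2019 bp at JARID2 and 1982 bp at PHF19 among the Polycomb genes. Each exceeded the 1501 bp of CHD1, the widest of the 40 remodeller genes. The nearest peak edge of the unmarked genes in those lists was 1369 bp from the start for PCGF2, 9707 bp for ACTR8, 13219 bp for DPF3, 16518 bp for PHC1 and 80241 bp for L3MBTL2, so PCGF2 was the nearest to the limit of the definition.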
